A study of Mus musculus with 69 samples.

Results

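Integrins were followed through 10 subunit genes of the 24411 genes in the count table. The beta subunits were Itgb1, Itgb3, Itgb4, Itgb6 and Itgb8, and the alpha subunits were Itgav, Itga2, Itga3, Itga5 and Itga6. All 10 were found by symbol and all 10 had enough counts to be tested. Itgb6 was chosen by its own values, because newly made Itgb6 RNA moved in opposite directions after ischemia and volume depletion in the Hoxb7Cre mice. Its injury values in Hoxb7Cre mice are therefore given as a description without a test, in females too since the choice named no sex, and members are counted there over the 9 other genes. Those 9 genes were also chosen with values of male libraries known. Tests and counts in males are therefore not independent of the choice of members.

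The libraries came from kidneys of mice that carried UPRT f/+ with either Hoxb7Cre or Atp6v1b1Cre (spelled Atp6b1v1Cre in the labels). UPRT is an enzyme that lets a cell build 4-thiouracil (4-TU) into new RNA, and Cre switched it on in the collecting duct (Hoxb7Cre) or in intercalated and double-positive collecting duct cells (Atp6v1b1Cre), with a few scattered interstitial cells also marked by Atp6v1b1Cre. Every mouse, controls included, was given 430 mg/kg 4-TU 4 hours before dissection, and the labeled RNA was pulled down and sequenced. The 69 libraries were 48 pulldowns and 21 unselected total RNA libraries of control kidneys. iAKI denotes arterial and venous ischemia by clamping of both renal pedicles a day before labeling. vAKI denotes volume depletion by withholding water and food. Among the mice of 5.5 months, the Hoxb7Cre pulldowns held 4 control, 4 iAKI and 3 vAKI males and 4 control, 3 iAKI and 4 vAKI females. The Atp6v1b1Cre pulldowns held 4 control, 3 iAKI and 4 vAKI males and 4 control, 3 iAKI and 3 vAKI females. A further 2 female Hoxb7Cre and 3 male Atp6v1b1Cre controls, and 5 of the total RNA libraries, were from mice of 3 months. Apart from some alternative fits, they entered only the comparisons among controls.

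Integrins are the receptors by which cells hold on to matrix and to each other. Each is a pair of an alpha and a beta chain, and the pair decides the ligand. Itgb6 and Itgb8 pair with Itgav and release TGF-beta from its latent complex, and Itgb6 is restricted to epithelia. Itgb1 pairs with many alpha chains and is needed for a normal collecting duct. Itga3 and Itga6 make laminin receptors, Itgb4 joins Itga6 in hemidesmosomes, Itga2 with Itgb1 binds collagen, Itga5 with Itgb1 binds fibronectin, and Itgav with Itgb3 binds vitronectin and osteopontin.

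The promoters of Itgb6, Itga2 and Itga5 are shown because these genes had the widest differences among the members in male Hoxb7Cre mice. In GRCm38, Itgb6 spans chr2:60598292-60722643, Itga2 chr13:114833081-114932100 and Itga5 chr15:103344286-103366763, all on the minus strand. RefSeq (GRCm38.p6) held a window from 250 bases before to 50 bases after the start for 7 of the 10 members. The parts upstream of every annotated exon are printed 5′ to 3′ on the strand of the gene, with each CpG in capitals.
Itgb6, chr2:60722644-60722853, minus strand: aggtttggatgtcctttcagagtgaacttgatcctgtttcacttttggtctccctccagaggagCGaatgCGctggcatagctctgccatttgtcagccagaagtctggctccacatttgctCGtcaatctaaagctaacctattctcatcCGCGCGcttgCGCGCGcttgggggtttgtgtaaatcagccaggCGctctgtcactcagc
Itga2, chr13:114932101-114932350, minus strand: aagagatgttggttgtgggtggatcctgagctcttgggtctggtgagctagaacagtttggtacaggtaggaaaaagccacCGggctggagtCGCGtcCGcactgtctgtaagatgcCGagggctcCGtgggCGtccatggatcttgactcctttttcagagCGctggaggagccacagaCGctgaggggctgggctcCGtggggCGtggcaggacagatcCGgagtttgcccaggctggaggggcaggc
Itga5, chr15:103366792-103367041, minus strand: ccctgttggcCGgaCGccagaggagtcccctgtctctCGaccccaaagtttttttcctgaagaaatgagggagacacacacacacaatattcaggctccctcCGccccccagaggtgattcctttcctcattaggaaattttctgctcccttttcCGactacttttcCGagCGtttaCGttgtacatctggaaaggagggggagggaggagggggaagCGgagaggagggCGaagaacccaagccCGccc
Over the whole window, Itgb6 held 12 CpG, Itga2 13 and Itga5 13, against a median of 7 over all 32851 windows. Itgb1, Itgav and Itga3 held 27, 24 and 24 CpG, so the Itgb6 window was the poorest in CpG among the matched members. On either strand, the GC box GGGCGG occurred in 35.7% of all windows and in those of Itgb1, Itgav, Itga2, Itga3 and Itga5, but not in those of Itgb6 or Itgb8. The AP-1 site TGANTCA (7.81% of windows), the hypoxia response core ACGTG (19.6%) and the TATA box TATAAA (13.6%) occurred in none of the windows of the 7 members.

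Total counts ran from 12618062 to 30305464 per library, with a median of 20868430. Library numbers in the labels fell into 3 separate runs, called series A, B and C here, whose meaning the labels do not give. All injured Hoxb7Cre libraries were of series A, whereas controls and Atp6v1b1Cre groups were mixed. In male Hoxb7Cre mice, 8 principal cell markers summed to 2802 to 3646 CPM (counts scaled to library size) in controls, 1072 to 1315 after ischemia and 1174 to 1261 after volume depletion, and 7 and 8 of the 8 fell. In these bulk pulldowns, fewer labeled cells of a type and less new RNA per cell cannot be told apart. Whether the lower principal cell markers had a part in the integrin values was not tested. The study states numbers of mice that equal those of the male libraries of each treatment at 5.5 months, while the labels name no mouse, and p-values measure the spread between these samples.

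At baseline, integrin RNA was present in both pulldowns in an order led by Itgb1. On a scale of CPM per kilobase of exon, the Hoxb7Cre controls (n = 10) held 56.1 ± 7.41 (SD) of Itgb1, 39.1 ± 5.19 of Itgav and 36.7 ± 11.4 of Itga6. Itga3 followed at 27.4 ± 5.18, Itgb6 at 16.8 ± 4.84 and Itgb8 at 9.98 ± 4.09. The remaining members were far lower. Itgb4 was at 1.95 ± 0.957, Itga2 at 1.83 ± 0.56, Itga5 at 1.64 ± 0.68 and Itgb3 at 0.576 ± 0.132. Itgb1 exceeded Itgav in 10 of 10 libraries, and Itgb8 exceeded Itgb4 in 10 of 10. Itgav was above Itga6 in 8, Itga6 above Itga3 in 7 and Itgb4 above Itga2 in only 5, so these neighbours overlapped within their spread.

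The Atp6v1b1Cre controls (n = 11) had a similar set of levels, apart from Itga3. Per kilobase, Itgb1 was at 59.9 ± 8.97, Itgav at 39.5 ± 7.93, Itga6 at 35.2 ± 7.81, Itgb6 at 17.0 ± 4.17, Itga3 at 14.5 ± 1.31 and Itgb8 at 12.2 ± 5.14. Itga5 (1.84 ± 0.596), Itgb4 (1.43 ± 0.538), Itga2 (1.31 ± 0.443) and Itgb3 (0.836 ± 0.176) were again low. In total kidney RNA (n = 21), Itgb1 stood at 110 ± 7.08 per kilobase, Itgav at 24.6 ± 3.34, Itgb6 at 10.1 ± 2.53 and Itga2, the lowest, at 0.519 ± 0.21.

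**Figure D1:**
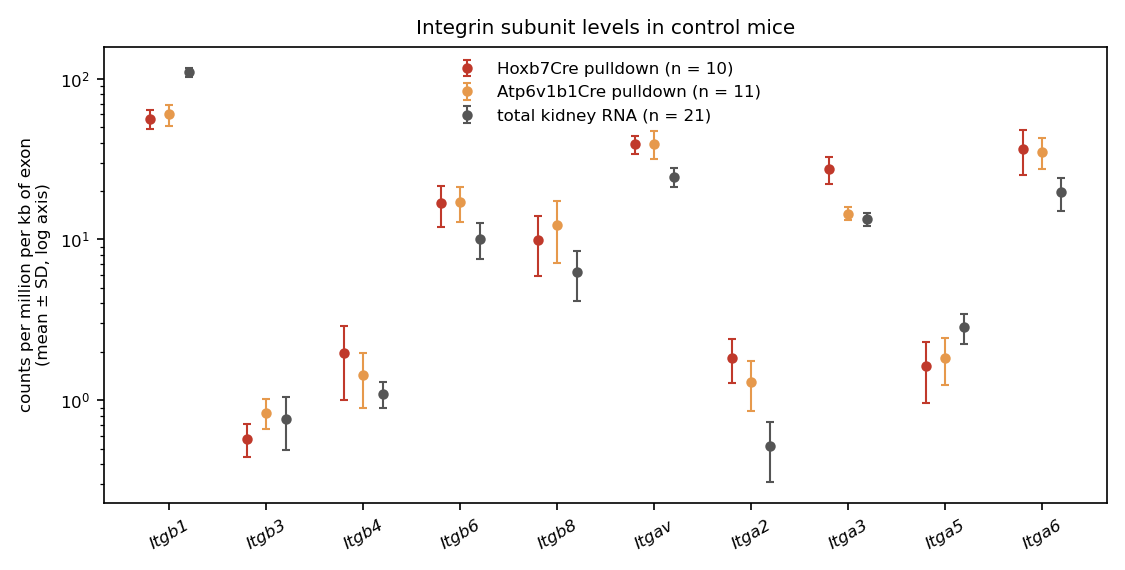
Levels of the 10 integrin subunits in control libraries, in CPM per kilobase of exon (log axis), for Hoxb7Cre pulldowns (n = 10), Atp6v1b1Cre pulldowns (n = 11) and total kidney RNA (n = 21), with points at means and bars of 1 SD. Itga3 is higher in the Hoxb7Cre pulldowns (27.4) than in the Atp6v1b1Cre pulldowns (14.5), and Itgb1 is highest in total RNA (110).

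Against total RNA, the pulldowns held more of most of these subunits and less of Itgb1 and Itga5. The pulldowns also held RNA of other cells. In Hoxb7Cre controls, summed CPM of markers had medians of 2446 (principal cell) and 2534 (proximal tubule), against 1052 and 13560 in total RNA. New RNA was here compared with standing RNA, and the paper states that the method may favour uracil-rich RNA. These differences can therefore not be assigned to cell type. Every adjusted p comes from quasi-likelihood tests of edgeR, adjusted by Benjamini and Hochberg's method over all 21175 genes tested. On that basis, 9 of 10 members passed 0.05 in the Hoxb7Cre controls, 7 of them higher and 2 lower (35.6% and 31.1% of all genes). The largest enrichment was that of the collagen receptor chain Itga2, at a log2 fold change of 1.87 ± 0.195 (SE, adjusted p = 1.06e-11), followed by the laminin receptor chain Itga3 at 1.07 ± 0.0673 (adjusted p = 5.97e-19). Itgb1 (−0.93 ± 0.0658, adjusted p = 4.71e-17) and Itga5 (−0.85 ± 0.138, adjusted p = 5.44e-07) were lower. The Atp6v1b1Cre controls also had 7 members higher and 2 lower than total RNA (34.4% and 29.4% of all genes), with Itga2 at 1.41 ± 0.196 (adjusted p = 2.05e-08) and Itgb6 at 0.82 ± 0.116 (adjusted p = 2.27e-08). Itgb3 did not pass in either pulldown. Each pulldown was compared with all 21 total libraries of both drivers. The 21 total libraries equal the 21 control pulldowns in number for each driver, sex, age and series, so they may be RNA of the same mice. No label pairs them, the fit took them as separate samples, and the effect of shared mice on these p-values was not tested. The median log2 fold change of all genes was 0.107 with Hoxb7Cre and 0.107 with Atp6v1b1Cre, close to the value of Itga3 in the latter (0.17 ± 0.0676, adjusted p = 0.0295). Shares and medians of all genes, here and below, are over the 21175 genes tested. Only 13930 genes had a mean of at least 1 CPM over the 48 pulldowns, all 10 members among them. The shares among those genes were not computed.

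Between the pulldowns, Itga3 was the 1 member of 10 that passed. It stood at 82.8 ± 7.51 CPM (SD, n = 11) in the Atp6v1b1Cre controls and 157 ± 29.6 CPM (n = 10) in the Hoxb7Cre controls, a log2 difference of −0.91 ± 0.0797 (adjusted p = 1.42e-11). Of all genes, 5.73% were higher with Atp6v1b1Cre and 4.2% lower. The log2 difference in Itgb6 was 0.10 ± 0.14 (adjusted p = 0.778), from 121 ± 29.7 CPM with Atp6v1b1Cre and 119.5 ± 34.4 CPM with Hoxb7Cre.

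After ischemia in male Hoxb7Cre mice, Itga5, Itga6 and Itgb3 rose and Itga3 fell. These were 4 of 9 members counted, 3 higher and 1 lower, while 3.34% of all genes were higher and 2.79% lower. The median log2 fold change was 0.388 over the 9 members and 0 over all genes. After volume depletion, Itga5 and Itgb3 rose and Itga2, Itga3 and Itgb4 fell, 5 of 9, where 17.9% of all genes were higher and 17.6% lower. The median was −0.338 over the 9 members and 0 over all genes. All genes here include many of few counts, and the share among expressed genes was not computed. Nothing is therefore read from 4 of 9 or 5 of 9. When females were added to the fit with sex as a covariate, 0 of the 9 passed after ischemia. The share of all genes called in that fit is not given, so nothing is read from this count either. The ischemia and volume depletion comparisons share their control libraries.

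With Atp6v1b1Cre in males, Itga5 rose and Itgb8 fell after ischemia, 2 of 10, against 3.77% of all genes higher and 4.74% lower. After volume depletion, Itga5 rose and Itgb8 and Itga2 fell, 3 of 10, against 8.11% higher and 6.47% lower. Here too the stimuli share controls.

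**Figure D2:**
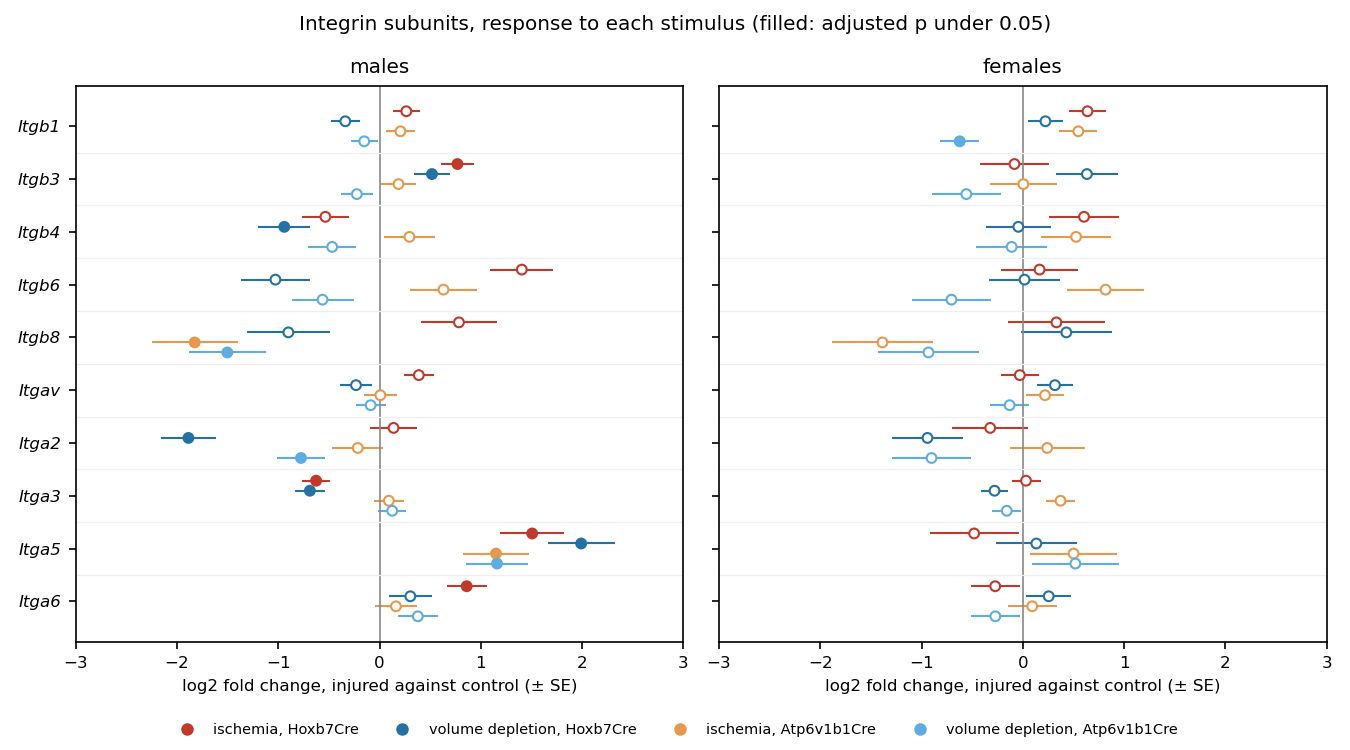
Log2 fold change of each integrin subunit, injured against control, with bars of 1 SE, in males (left) and females (right), in colour by stimulus and driver. Filled points had an adjusted p under 0.05. Itgb6 in male Hoxb7Cre mice (1.41 and −1.03) is drawn open because those values chose the gene and were not tested, and among females a single point, Itgb1 after volume depletion with Atp6v1b1Cre (−0.62), is filled.

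Itgb6 is the epithelial chain of a TGF-beta-releasing integrin. In male Hoxb7Cre mice its CPM was 100.9, 71.5, 99.1 and 120.4 in the controls, 163, 374, 272 and 222 after ischemia, and 59.6, 42.95 and 41.4 after volume depletion. Every ischemic library lay above every control and every volume-depleted library below. The log2 fold change was 1.41 ± 0.31 after ischemia, −1.03 ± 0.339 after volume depletion, and −2.43 ± 0.358 for volume depletion against ischemia. Within series A these values were 1.57, −0.83 and −2.40. Leaving out any single library kept the ischemia value between 1.15 and 1.57 and the volume depletion value between −1.21 and −0.91.

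The choice of Itgb6 did not rest on the Atp6v1b1Cre libraries. In male Atp6v1b1Cre mice Itgb6 was at 100.9, 114, 141 and 139.5 CPM in controls, at 123, 110.2 and 342 after ischemia and at 61.4, 127, 66.6 and 76.3 after volume depletion. Both injured groups overlapped the controls, and a single ischemic library, replicate 5, was far above the rest. The log2 fold changes of 0.63 ± 0.326 (adjusted p = 0.243) after ischemia and −0.56 ± 0.306 (adjusted p = 0.234) after volume depletion did not pass, and the former was −0.08 without replicate 5. Volume depletion against ischemia gave −1.20 ± 0.327 (adjusted p = 0.00786), but −0.49 (adjusted p = 0.197) without replicate 5 and −0.30 (adjusted p = 0.538) within series A.

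In female Atp6v1b1Cre mice Itgb6 was at 121, 113, 107.5 and 197 CPM in controls, at 197, 132 and 391.7 after ischemia and at 56.6, 64.7 and 126 after volume depletion. Each ischemic library was above each volume-depleted one, while both groups overlapped the controls. The log2 difference of volume depletion against ischemia, a comparison added after values had been seen, was −1.52 ± 0.415 (adjusted p = 0.00789), but −0.96 (adjusted p = 0.0716) without ischemia replicate 6, the highest library. Within series A, which also lacks that library, the difference was −1.395. With replicate number as a block it was −0.60 (adjusted p = 0.54). Against control, the values were 0.82 ± 0.376 (adjusted p = 0.225) and −0.70 ± 0.386 (adjusted p = 0.214).

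Female Hoxb7Cre mice had no such separation. Itgb6 was between 89.0 and 171 CPM in the 4 controls, at 171, 156 and 91.7 after ischemia and at 105.5, 194, 143 and 65.2 after volume depletion. The groups overlapped, with log2 fold changes of 0.17 ± 0.378 and 0.02 ± 0.351. The female minus male response of Itgb6, −1.26 after ischemia and 1.04 after volume depletion, rests on values that chose it and was not tested.

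**Figure D3:**
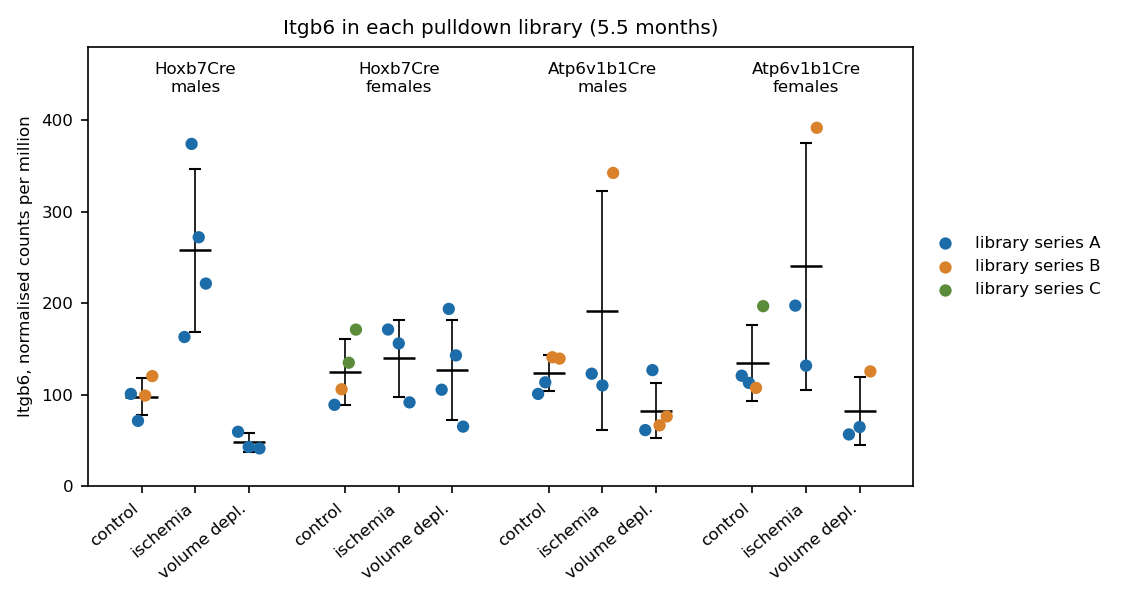
Normalised CPM of Itgb6 in the 43 libraries pulled down at an age of 5.5 months, by driver, sex and stimulus, with the mean and bars of 1 SD, and points coloured by library series. In male Hoxb7Cre mice the ischemic libraries (163 to 374) lie above and the volume-depleted libraries (41.4 to 59.6) below all controls (71.5 to 120.4), whereas in both Atp6v1b1Cre ischemia groups a single library of series B (342 and 391.7) is far above the others.

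Itgb8, the other partner of Itgav that releases TGF-beta, fell in male Atp6v1b1Cre mice under both stimuli. It was at 232, 191, 149.6 and 126 CPM in controls, at 31.9, 54.1 and 62.4 after ischemia and at 96.2, 97.7, 20.3 and 27.96 after volume depletion. No injured library reached the lowest control. The log2 fold changes were −1.82 ± 0.425 (adjusted p = 0.0111) and −1.50 ± 0.379 (adjusted p = 0.0104). Within series A they were −2.32 (adjusted p = 0.000386) and −1.13 (adjusted p = 0.0309), and the ischemia call was lost without ischemia replicate 1 (−1.57, adjusted p = 0.0866). In the same libraries, proximal tubule markers summed to 1025 to 1383 CPM after ischemia against 2145 to 3953 in controls (3 of 8 fell), and endothelial markers to 153 to 236 against 252 to 314 (2 of 7 fell). Intercalated cell markers summed to 592 to 789 after volume depletion against 922 to 1253 (5 of 8 fell), and leukocyte markers to 122 to 207 against 209 to 275 (3 of 10 fell). Their part in the Itgb8 values was not tested.

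In male Hoxb7Cre mice Itgb8 was at 144, 91.2, 83.5 and 126 CPM in controls, 216, 137, 213 and 193 after ischemia and 86.2, 41.5 and 50.5 after volume depletion. Neither difference from control passed, at 0.78 ± 0.373 (adjusted p = 0.234) and −0.90 ± 0.411 (adjusted p = 0.0939), but volume depletion did within series A (−0.97, adjusted p = 0.00804), with series as a covariate (−1.21, adjusted p = 0.0142), in a fit of only the 2 groups compared (−0.89, adjusted p = 0.0104) and without volume depletion replicate 4 (−1.27, adjusted p = 0.0433), as did ischemia in a fit of its 2 groups (0.77, adjusted p = 0.0291). The difference between the drivers in the response to ischemia did pass, at −2.61 ± 0.562 (adjusted p = 0.00855), and was −3.002 within series A (adjusted p = 0.000368). For volume depletion the same difference was −0.60 ± 0.546 (adjusted p = 0.615).

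Itgav, their shared alpha chain, did not pass against control in the fits of all males, with log2 fold changes of 0.39 and −0.23 with Hoxb7Cre and 0.01 and −0.09 with Atp6v1b1Cre. In Hoxb7Cre males, however, it was at 475, 648, 542 and 454 CPM after ischemia and 329.6, 402 and 308 after volume depletion, without overlap, a log2 difference of −0.62 ± 0.163 (adjusted p = 0.00493). With both sexes in the fit and sex as a covariate, that difference was −0.14 (adjusted p = 0.497). Hoxb7Cre females went the other way, with means of 425 CPM after ischemia and 544 after volume depletion.

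Itgb3, the partner of Itgav in the vitronectin receptor, was low throughout. In male Hoxb7Cre mice it was at 4.72, 3.73, 3.803 and 3.33 CPM in controls, at 6.58, 7.53, 5.96 and 6.27 after ischemia and at 4.98, 5.68 and 6.00 after volume depletion. Both injured groups lay above all controls. The log2 fold changes were 0.77 ± 0.162 (adjusted p = 0.00746) and 0.52 ± 0.174 (adjusted p = 0.023). The second call was lost without control replicate 3 (adjusted p = 0.0527) or 5 (adjusted p = 0.0678), without volume depletion replicate 6 (adjusted p = 0.0635) or 7 (adjusted p = 0.0899), and within series A (0.41, adjusted p = 0.119). Itgb3 is also a platelet gene. A list of 5 platelet genes summed to 15.7 to 19.1 CPM in these controls, 14.2 to 18.5 after ischemia and 22.4 to 23.9 after volume depletion. The sum after volume depletion lay above all controls, as Itgb3 did. In each group 3 of the 5 genes, Pf4, Gp9 and Ppbp, had medians under 1 CPM, so the others carried the sum. The part of platelet RNA in the Itgb3 values was not tested.

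Itga5, the alpha chain of the fibronectin receptor, rose in all 4 male comparisons with control. In Hoxb7Cre males it was at 6.11, 4.75, 5.38 and 4.92 CPM in controls, at 9.50, 25.5, 10.9 and 13.7 after ischemia and at 15.2, 26.2 and 21.5 after volume depletion. Every injured library was above every control. The log2 fold changes were 1.51 ± 0.313 (adjusted p = 0.00689) and 1.99 ± 0.331 (adjusted p = 6.94e-05), and neither call was lost when any 1 library was left out.

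In Atp6v1b1Cre males Itga5 was at 5.99, 8.91, 7.04 and 8.30 CPM in controls, at 14.8, 7.63 and 27.9 after ischemia and at 14.0, 17.7, 16.6 and 18.7 after volume depletion. The ischemic group overlapped the controls and the volume-depleted group did not. Its rise after ischemia (1.15 ± 0.324, adjusted p = 0.0294) was not called without ischemia replicate 5 (0.58, adjusted p = 0.248) or 1 (adjusted p = 0.0736), without control replicate 6, 10 or 11 (adjusted p = 0.0744, 0.0598 and 0.0533) or within series A (0.59, adjusted p = 0.376). The rise after volume depletion (1.16 ± 0.307, adjusted p = 0.0141) was not called without control replicate 6 (adjusted p = 0.0552) or within series A (1.09, adjusted p = 0.0989).

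Itga2, a collagen receptor chain, fell after volume depletion. In Hoxb7Cre males it was at 15.9, 10.6, 15.8 and 17.1 CPM in controls and at 4.63, 4.23 and 3.17 after volume depletion, a log2 fold change of −1.89 ± 0.269 (adjusted p = 1.27e-05). All volume-depleted libraries were below the controls. After ischemia it was at 16.1, 14.7, 16.5 and 17.6 CPM, a log2 fold change of 0.14 ± 0.229 (adjusted p = 0.81), and volume depletion against ischemia gave −2.02 ± 0.27 (adjusted p = 7.27e-06).

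In Atp6v1b1Cre males the log2 fold change of Itga2 after volume depletion was −0.78 ± 0.238 (adjusted p = 0.0306). Controls were at 5.74 and 6.34 CPM in series A and 10.1 and 12.8 in series B. Volume-depleted libraries were at 5.60 and 6.39 in series A and 3.26 and 4.86 in series B. The groups were apart in series B, and within series A the difference was −0.01 (adjusted p = 1). The call was also lost without volume depletion replicate 6 (adjusted p = 0.116) or 7 (adjusted p = 0.0721) or control replicate 10 (adjusted p = 0.0862) or 11 (adjusted p = 0.131).

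Among the laminin receptor chains of Hoxb7Cre males, Itga3 fell under both stimuli and Itga6 rose after ischemia. Itga3 was at 169.7, 200, 180.4 and 197 CPM in controls, at 125, 137, 107.2 and 110.5 after ischemia and at 98.98, 136 and 112 after volume depletion. No injured library reached the lowest control. The log2 fold changes were −0.63 ± 0.136 (adjusted p = 0.00866) and −0.69 ± 0.148 (adjusted p = 0.000901).

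In Atp6v1b1Cre males Itga3 was at 82.6, 80.8, 80.5 and 94.5 CPM in controls, at 84.6, 72.9 and 114 after ischemia and at 80.1, 103.5, 91.1 and 90.4 after volume depletion, with log2 fold changes of 0.09 ± 0.146 (adjusted p = 0.771) and 0.12 ± 0.136 (adjusted p = 0.583) that did not pass. The drivers differed in this response, by 0.72 ± 0.199 (adjusted p = 0.0292) after ischemia and 0.81 ± 0.2 (adjusted p = 0.0215) after volume depletion. The first difference missed the threshold in 5 of 15 fits that left out 1 library (adjusted p up to 0.0668) and within series A (0.57, adjusted p = 0.095). The second missed it without Hoxb7Cre volume depletion replicate 7 (adjusted p = 0.0671). After ischemia, Itgb8 and Itga3 were the 2 of 9 members that differed between drivers (3.67% of all genes higher with Atp6v1b1Cre, 4.11% lower), and Itga3 was the 1 of 9 after volume depletion (2.04% and 2.16%).

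Itga6 in Hoxb7Cre males was at 365, 250.5, 216 and 210.5 CPM in controls and 422, 549, 459.9 and 441 after ischemia. All ischemic libraries exceeded the controls, with a log2 fold change of 0.86 ± 0.196 (adjusted p = 0.0113). After volume depletion it was at 332, 328 and 300 CPM (0.30 ± 0.209, adjusted p = 0.283). Itgb4, its partner in hemidesmosomes, was at 17.8, 28.1, 12.5 and 15.6 CPM in controls, 12.0, 16.4, 10.7 and 11.6 after ischemia and 7.55, 11.4 and 9.79 after volume depletion. After volume depletion Itgb4 lay below all controls, at −0.94 ± 0.259 (adjusted p = 0.00652), while ischemia gave −0.53 ± 0.235 (adjusted p = 0.191), and −0.87 (adjusted p = 0.0201) within series A. The volume depletion call held within series A (−1.245, adjusted p = 0.000482). It was lost with both sexes in the fit (−0.53, adjusted p = 0.118), with all 69 libraries (−0.46, adjusted p = 0.0946) and with replicate number as a block (−0.43, adjusted p = 0.227). In Hoxb7Cre females the means were 10.4 CPM after volume depletion and 10.7 in controls. Itgb4 and Itgav share 537 and 634 exon bases with genes on the opposite strand that have no row in the count table, and reads of such partners cannot be told apart without strand.

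Itgb1, the common beta chain, did not pass in any male comparison with control in the fits of all males. After volume depletion with Hoxb7Cre it did pass within series A (−0.50, adjusted p = 0.0069), with series as a covariate (−0.46, adjusted p = 0.00395) and without control replicate 4 (−0.41, adjusted p = 0.0406). After ischemia with Hoxb7Cre it passed in a fit of all 69 libraries, which pools males and females (0.43, adjusted p = 0.00523). Its log2 fold changes were 0.26 ± 0.133 and −0.34 ± 0.145 after ischemia and volume depletion with Hoxb7Cre, and 0.21 ± 0.143 and −0.15 ± 0.133 with Atp6v1b1Cre. Between the stimuli in Hoxb7Cre males it differed by −0.60 ± 0.145 (adjusted p = 0.0026), at 184, 216 and 181 CPM after volume depletion and 265, 341, 265 and 299 after ischemia, without overlap.

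**Figure D4:**
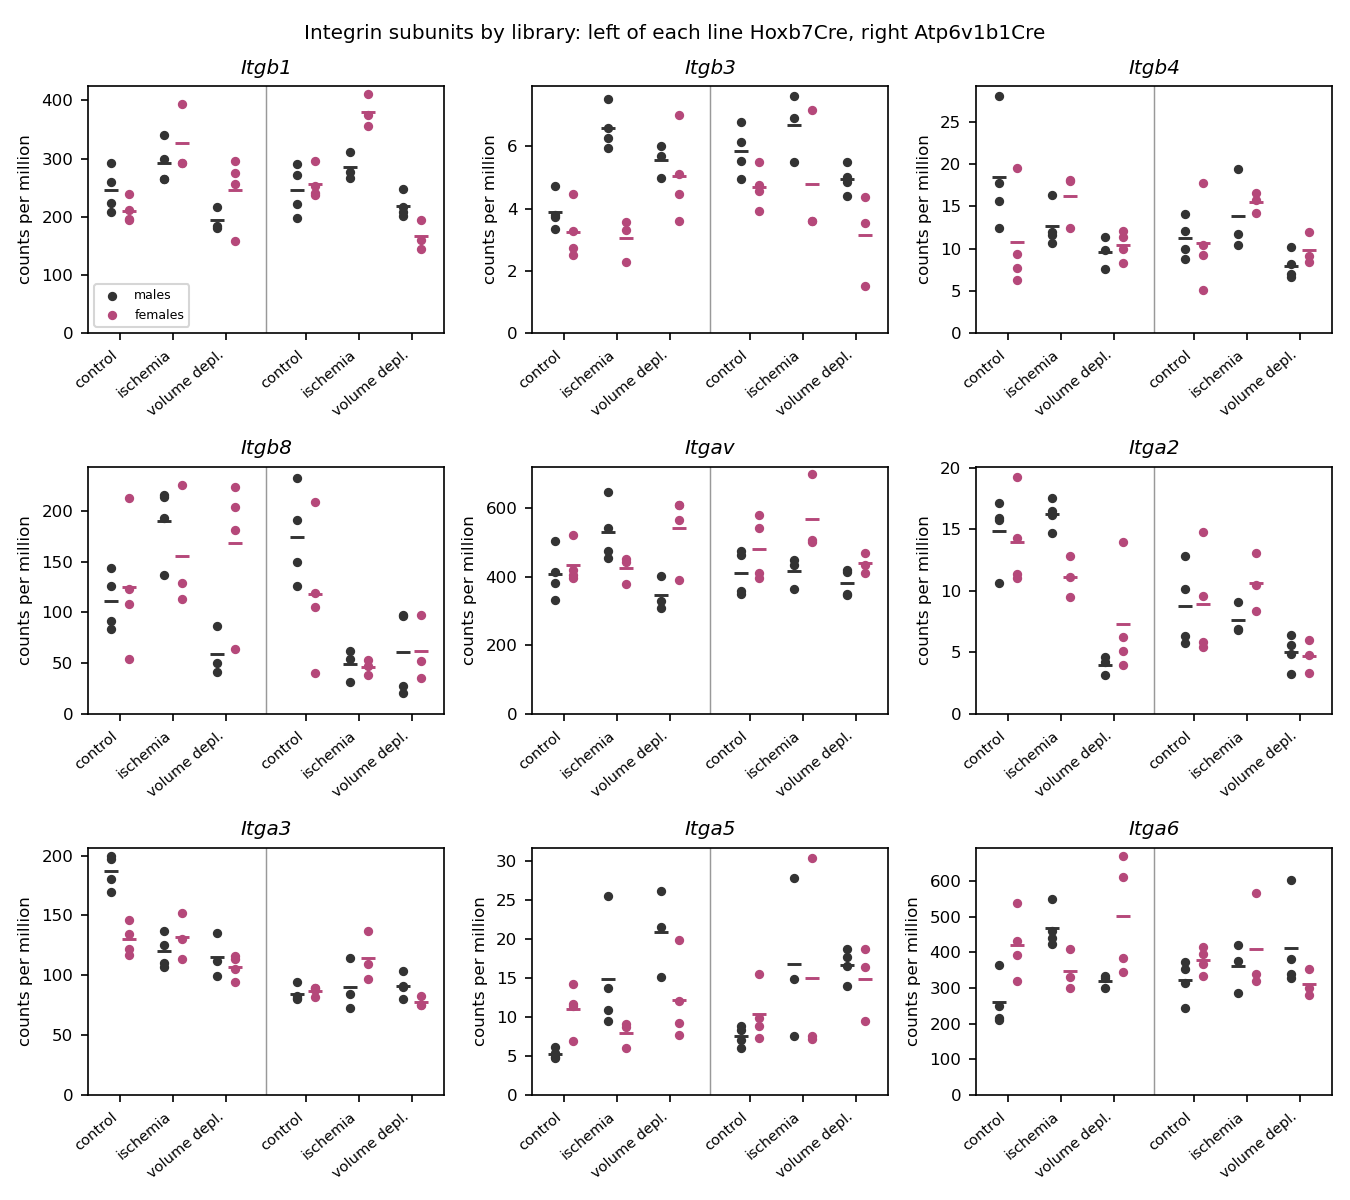
CPM of the 9 other integrin subunits in each library pulled down at 5.5 months, males dark and females pink, with group means as lines and Hoxb7Cre left and Atp6v1b1Cre right of the vertical line. Itga2 in volume-depleted Hoxb7Cre males (3.17 to 4.63) and Itgb8 in ischemic Atp6v1b1Cre males (31.9 to 62.4) lie clear of their controls (10.6 to 17.1 and 126 to 232).

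Comparison of the stimuli with each other uses no control libraries. In Hoxb7Cre males, 5 of 9 members were lower after volume depletion than after ischemia and 0 were higher, with 16.9% of all genes lower and 16.4% higher. Beside Itga2, Itgb1 and Itgav they were Itgb8 at −1.68 ± 0.422 (adjusted p = 0.00348) and Itga6 at −0.56 ± 0.212 (adjusted p = 0.047). The Itga6 call was lost in each of the 7 fits that left out 1 library (adjusted p up to 0.141). With both sexes in the fit, Itgb8 (−0.56, adjusted p = 0.266) and Itga6 (−0.02, adjusted p = 0.981) did not pass. In Hoxb7Cre females, means were higher after volume depletion than after ischemia for Itgb8 (168 against 156 CPM), Itga6 (503 against 346) and Itgav. Those of Itgb1 (246 against 326) and Itga2 (7.33 against 11.1) were lower, as in males. In Atp6v1b1Cre males, Itgb6 and Itgb4 were the 2 of 10 that passed, both lower (14.3% of all genes lower, 15% higher). Itgb4 was at 19.4, 11.7 and 10.5 CPM after ischemia and 8.14, 10.2, 6.59 and 7.00 after volume depletion, at −0.76 ± 0.254 (adjusted p = 0.0262), and at −0.47 (adjusted p = 0.243) without ischemia replicate 1. That call was also lost without volume depletion replicate 6 (adjusted p = 0.0719) or 7 (adjusted p = 0.0549).

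In Atp6v1b1Cre females 4 of 10 members were lower after volume depletion than after ischemia, with 17.4% of all genes lower and 15.8% higher. Itgb1 was at 159.9, 194 and 145 CPM after volume depletion and 376, 412 and 356 after ischemia. The groups did not overlap, and the log2 difference was −1.17 ± 0.203 (adjusted p = 0.000356). The others were Itgb6, Itga2 (−1.14 ± 0.409, adjusted p = 0.0364) and Itga3 (−0.53 ± 0.154, adjusted p = 0.0116). Itga2 lost its call without any of 4 libraries (adjusted p up to 0.127), and Itga3 without ischemia replicate 6 (adjusted p = 0.0775). In Hoxb7Cre females 0 of 9 members passed in edgeR or DESeq2, where 2.47% of all genes were higher and 1.31% lower at the adjusted threshold. Of the 9, 4 had an unadjusted p under 0.05. The share of all genes at an unadjusted p is not given, so nothing is read from these 4.

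Against control, the female libraries gave few calls. After ischemia with Hoxb7Cre, 0 of 9 members passed in edgeR, 1 had an unadjusted p under 0.05 and DESeq2 called 1, with 1.42% of all genes higher and 1.72% lower. After volume depletion with Hoxb7Cre, 0 of 9 passed in edgeR, 2 had an unadjusted p under 0.05 and DESeq2 called 0, with 0.0472% and 0.0614% of all genes called. After ischemia with Atp6v1b1Cre, 0 of 10 passed in edgeR, 4 had an unadjusted p under 0.05 and DESeq2 called 2, with 1.64% and 1.02% of all genes called. These shares are of genes past the adjusted threshold in edgeR. Shares at an unadjusted p or in DESeq2 are not given, so nothing is read from those counts.

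Itgb8 in Atp6v1b1Cre females was at 119, 209, 40.2 and 105.3 CPM in controls, 47.1, 52.6 and 38.1 after ischemia (−1.39 ± 0.502, adjusted p = 0.125) and 52.5, 97.8 and 35.0 after volume depletion (−0.93 ± 0.494, adjusted p = 0.198). The injured groups overlapped the controls, of which 1 was as low as the ischemic libraries. After volume depletion with Atp6v1b1Cre, Itgb1 was the 1 of 10 members that passed, at −0.62 ± 0.19 (adjusted p = 0.0281), where 9.2% of all genes were higher and 8.81% lower. It lost its call without volume depletion replicate 3 (adjusted p = 0.108) or 5 (adjusted p = 0.109) or control replicate 8 (adjusted p = 0.0821) or 13 (adjusted p = 0.0523), and within series A (adjusted p = 0.178).

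The sexes differed in the Hoxb7Cre response of a few members. After ischemia, the female minus male difference in log2 fold change was −2.005 ± 0.562 (adjusted p = 0.0216) for Itga5, −1.15 ± 0.316 (adjusted p = 0.0201) for Itga6 and 0.65 ± 0.188 (adjusted p = 0.0261) for Itga3, 3 of 9 members, with 4.03% of all genes higher and 6.51% lower. After volume depletion it was −1.87 ± 0.547 (adjusted p = 0.0194) for Itga5, 1 of 9, with 8.51% and 7.48%. Of 15 fits that left out 1 library, the ischemia call was lost in 5 for Itga3, 3 for Itga5 and 2 for Itga6. The volume depletion call of Itga5 was lost in 4 of 15. Within series A, where a single female control remained, none of these passed (adjusted p = 0.476, 0.427 and 0.335 for Itga3, Itga5 and Itga6 after ischemia and 0.453 for Itga5 after volume depletion).

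In female Hoxb7Cre mice Itga5 was at 6.98, 14.2, 11.7 and 11.5 CPM in controls, 8.67, 9.07 and 6.00 after ischemia and 7.65, 12.0, 9.20 and 19.8 after volume depletion, and the groups overlapped. All 4 of those female controls were above the highest male control. Female Hoxb7Cre controls held 117 to 146 CPM of Itga3, against 169.7 to 200 in males, and 1146 to 2581 CPM of summed principal cell markers, against 2802 to 3646. The part of that difference between controls was not tested. With Atp6v1b1Cre, edgeR and DESeq2 called 0 of 10 members in either response, 0 and 0 members had an unadjusted p under 0.05, and 0% of all genes passed in either direction, with 676 and 1756 genes at an unadjusted p under 0.05.

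Markers of injured tubule were a list of 7 genes that includes Lcn2, Havcr1 and Krt20. In Hoxb7Cre males they summed to 201.7 to 839 CPM after ischemia, against 97.3 to 171 in controls. Ischemic sums also lay above all controls in Atp6v1b1Cre males (155.1 to 837 against 105.4 to 152.7) and females (252 to 1504 against 103.4 to 192.8). In Hoxb7Cre females the groups overlapped (128.1 to 223.9 against 57.58 to 212.6). Of the ischemic libraries, 3 were far above the others in this sum. Their summed CPM was 839 in Hoxb7Cre male replicate 5, 837 in Atp6v1b1Cre male replicate 5 and 1504 in Atp6v1b1Cre female replicate 6. The same 3 libraries held the highest Itgb6 of the 43 (374, 342 and 391.7 CPM). Their Itga5 was 25.5, 27.9 and 30.4 CPM. In Hoxb7Cre males, fibroblast and pericyte markers also summed to 116 to 283 CPM after ischemia against 44.4 to 98.6 in controls, and 4 of 7 rose. After volume depletion these markers summed to 108.4 to 148 CPM (2 of 7 rose), endothelial markers to 297 to 438 against 136 to 259 in controls (4 of 7 rose), podocyte markers to 233 to 283 against 155 to 186 (2 of 5 rose) and injured tubule markers to 206 to 287 against 97.3 to 171 (1 of 7 rose). Each of these sums lay above all controls, as did Itga5. Thick ascending limb markers summed lower, to 874 to 1007 against 1709 to 2865. Urothelium markers in Hoxb7Cre males summed to 18.7 to 25.2 CPM after ischemia and 18.1 to 23.3 after volume depletion, against 33.8 to 36.9 in controls. Under both stimuli that sum lay below all controls, as did Itga3. The part of these markers in the integrin values was not tested. Without Hoxb7Cre replicate 5, the log2 fold change after ischemia was 1.15 for Itgb6 and 1.10 for Itga5.

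**Figure D5:**
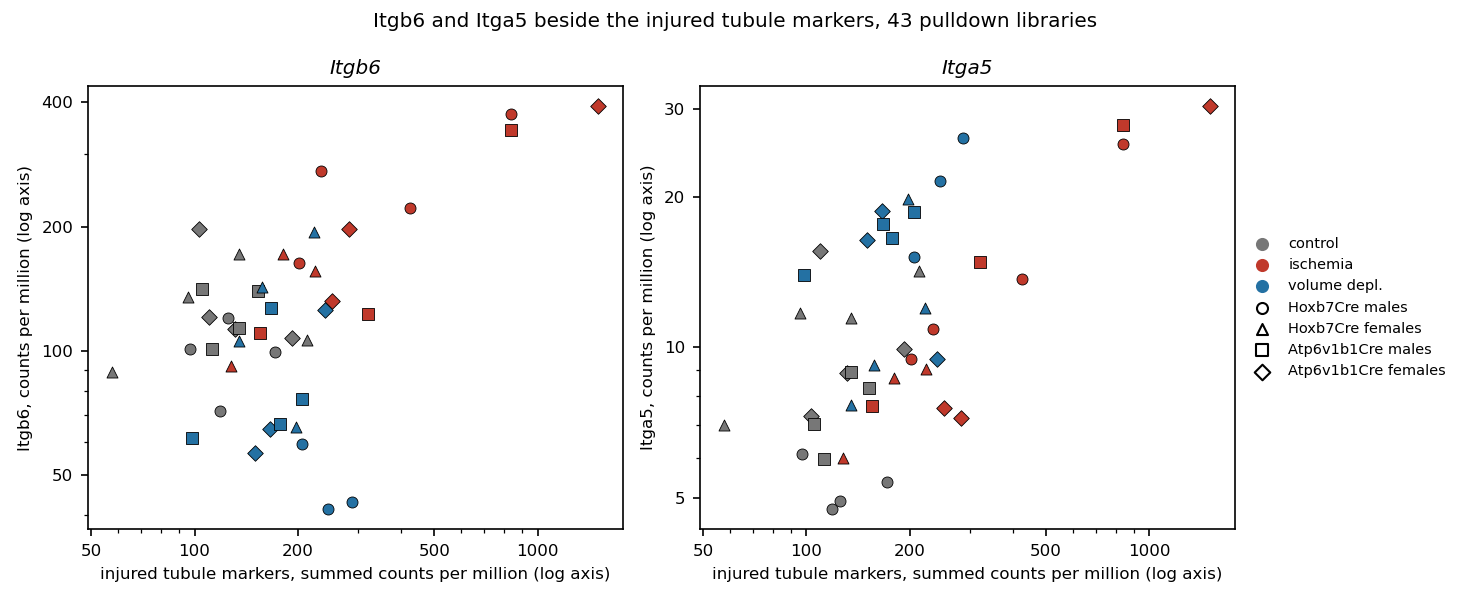
Itgb6 (left) and Itga5 (right) in CPM against the summed CPM of 7 injured tubule markers, both on log axes, in the 43 libraries pulled down at an age of 5.5 months. The 3 libraries with the highest marker sums (837 to 1504) are ischemic and hold the highest Itgb6 (342 to 391.7).

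The lists of pathway genes are read against the shares of all genes called in Hoxb7Cre males, 3.34% higher and 2.79% lower after ischemia and 17.9% and 17.6% after volume depletion, and in Atp6v1b1Cre males, 3.77% and 4.74%, and 8.11% and 6.47%. Of 33 ligand genes in Hoxb7Cre males, 8 rose and 2 fell after ischemia and 10 rose and 5 fell after volume depletion, and in Atp6v1b1Cre males 6 rose and 1 fell and 6 rose and 2 fell. The share that fell after volume depletion with Hoxb7Cre was close to that of all genes. The median log2 fold changes of the ligands were 0.458, 0.278, 0.159 and 0.159 in that order, against 0 over all genes. Osteopontin (Spp1), a ligand of the Itgav receptors, rose after ischemia from 358 to 1395 CPM with Hoxb7Cre (1.98 ± 0.486, adjusted p = 0.017) and from 361 to 1983 CPM with Atp6v1b1Cre (2.46 ± 0.515, adjusted p = 0.00577). Collagen Col1a1 also rose after ischemia, by 2.83 ± 0.438 (adjusted p = 0.000891) and 2.53 ± 0.441 (adjusted p = 0.0016) on the log2 scale.

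The fibrinogen chain Fgg rose after ischemia by 3.07 ± 0.663 (adjusted p = 0.00851) with Hoxb7Cre and 5.11 ± 0.696 (adjusted p = 0.000374) with Atp6v1b1Cre, and Fgb by 5.07 ± 0.913 (adjusted p = 0.0021) with Atp6v1b1Cre. Icam1 and Vcam1, ligands of leukocyte integrins, rose after volume depletion with Hoxb7Cre, from 17.5 to 138 CPM (2.98 ± 0.344, adjusted p = 1.23e-06) and from 8.32 to 55.7 CPM (2.749 ± 0.222, adjusted p = 3.02e-08). With Atp6v1b1Cre the same stimulus gave 1.65 ± 0.316 (adjusted p = 0.00156) for Icam1 and 0.64 ± 0.2 (adjusted p = 0.0337) for Vcam1, a gene that is also in the injured tubule list.

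Of 34 intracellular adaptor and kinase genes in Hoxb7Cre males, 12 rose and 6 fell after volume depletion, where 17.9% of all genes were higher and 17.6% lower, and 2 rose and 1 fell after ischemia. The share that fell after volume depletion was close to that of all genes. In Atp6v1b1Cre males 0 rose and 4 fell after ischemia and 2 rose and 1 fell after volume depletion. Kindlin-1 (Fermt1), which activates integrins in epithelia, fell after volume depletion with Hoxb7Cre from 178 to 46.2 CPM (−1.94 ± 0.251, adjusted p = 4.23e-06), and the adaptor Crk from 366 to 168 CPM (−1.11 ± 0.199, adjusted p = 0.000149). Tensin-2 (Tns2), which ties beta chains to actin, rose from 159 to 649 CPM (2.03 ± 0.214, adjusted p = 4.58e-07). The scaffold Bcar1 rose by 1.06 ± 0.21 (adjusted p = 0.000423) and the kindlin of blood cells, Fermt3, by 1.22 ± 0.245 (adjusted p = 0.000476). With Atp6v1b1Cre, Tns2 fell after ischemia (−1.05 ± 0.219, adjusted p = 0.00556) and rose after volume depletion (0.71 ± 0.198, adjusted p = 0.0187).

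Of the 16 other integrin subunits in Hoxb7Cre males, 0 rose and 1 fell after ischemia and 2 rose and 4 fell after volume depletion. Of all genes, 17.9% were higher and 17.6% lower after volume depletion, so nothing is read from these small counts. Itgb5, another partner of Itgav, was the one that fell after ischemia (−0.50 ± 0.111, adjusted p = 0.0102), and it fell after volume depletion too (−0.46 ± 0.121, adjusted p = 0.00442). After volume depletion Itga4 (1.08 ± 0.213, adjusted p = 0.000374) and Itga9 (1.02 ± 0.22, adjusted p = 0.000927) rose, and Itga10 (−1.80 ± 0.371, adjusted p = 0.000598), Itga1 (−0.56 ± 0.216, adjusted p = 0.0464) and the leukocyte subunit Itgam (−2.11 ± 0.663, adjusted p = 0.0154, from 4.32 to 0.985 CPM) fell. With Atp6v1b1Cre edgeR called 0 after ischemia, where 2 had an unadjusted p under 0.05, and DESeq2 was not run on this list. After volume depletion 3 fell, namely Itgal (−1.15 ± 0.262, adjusted p = 0.00533), Itgb7 (−0.94 ± 0.316, adjusted p = 0.0482) and Itgb5 (−0.34 ± 0.111, adjusted p = 0.0436).

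Among 9 tetraspanin and hemidesmosome partners, 0 rose and 2 fell after ischemia and 0 rose and 2 fell after volume depletion in Hoxb7Cre males, and 2 rose and 0 fell and 0 rose and 1 fell in Atp6v1b1Cre males. After volume depletion with Hoxb7Cre, 17.6% of all genes were lower, so nothing is read from a count in so short a list. The tetraspanin Cd82 fell with Hoxb7Cre under both stimuli (−0.55 ± 0.131, adjusted p = 0.0148 and −1.01 ± 0.145, adjusted p = 1.3e-05) and rose with Atp6v1b1Cre after ischemia (0.58 ± 0.14, adjusted p = 0.0128).

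Across the 48 pulldown libraries, the genes most like Itgb6 among 13930 with a mean of at least 1 CPM were Pold3 (Pearson r = 0.796 on log2 CPM), Gp2 (0.796), Zfp239 (0.794), Ofd1 (0.788) and the copper carrier ceruloplasmin, Cp (0.768). These libraries share drivers, stimuli and series, so the values are descriptive. Among the members, Itgb1 (0.525), Itga2 (0.504) and Itgav (0.495) were the nearest to Itgb6, and Itga5 (0.0263) the farthest.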

How the data were processed

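RNA labeled by UPRT was pulled down from mouse kidney and sequenced in 48 libraries, and unselected RNA in 21. The deposited files hold raw read counts per gene, made by the authors with CASAVA 1.8.2, Trimmomatic 0.36, STAR 2.5.3a and HTSeq 0.6.1p2 on mm10, per the labels and the submitters' processing notes. The annotation version is not given in the sources used here, so lengths and coordinates were taken from a GRCm38 annotation matched by symbol. HTSeq's strand setting is likewise not given.

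From these counts, genes were kept if their counts summed to 2 or more across the 69 libraries, which left 21175 of 24411. Quasi-likelihood tests of edgeR 4.0.16 (R 4.3.3, limma 3.58.1) with TMM scaling were run in 4 fits. One held the 22 male and one the 21 female pulldowns of mice of 5.5 months, one all 43 for differences between the sexes, and one the 42 controls with sex as a covariate. P-values were adjusted by the Benjamini-Hochberg method over all genes, and a gene passed at an adjusted p under 0.05. CPM was computed on 1 TMM scale. DESeq2 1.42.0, other filters, scalings, covariates and samples, and leaving out each library were alternatives. Use of series A only and the female comparisons of the stimuli were added after the data had been seen.

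The members and gene lists were chosen with earlier results of these data known. The genes named from the pathway lists were those that passed and changed by 1 or more on the log2 scale in a male comparison with control, at most 6 a list, with other subunits that passed named after their values were seen. Same-numbered libraries of different groups (14 pairs) were checked for shared deviations, and 3 pairs correlated above 0.1 (range −0.448 to 0.391), so the numbers were not used to pair samples. No 2 libraries of a group agreed within sampling noise. On simulated counts for ischemia in Hoxb7Cre males (21175 genes, 200 changed), 79% of genes changed by 1 on the log2 scale were recovered. The simulation gave every gene the same dispersion (0.0444) and changed only genes of higher counts. It therefore does not give the share recovered for members of wider spread or lower counts.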

Additional observations from a re-analysis of the deposited data

Results flagged for a closer look

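In groups of 4 libraries, 70 sets of values were examined for a sample far from the rest, and 2 had one, where chance alone gives about 1 in 20. Itga3 was at 94.5 CPM in male Atp6v1b1Cre control replicate 11, against 80.5 to 82.6 in the other 3 libraries. Itgb6 was at 197 CPM in female Atp6v1b1Cre control replicate 13, against 107.5 to 121 in the others.

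Differences between groups in the same response, tested in edgeR with Benjamini-Hochberg adjustment, were found for several members. Between the drivers in males, the Atp6v1b1Cre minus Hoxb7Cre response to ischemia was −2.61 for Itgb8 and 0.72 for Itga3 on the log2 scale, and the response to volume depletion was 0.81 for Itga3. Between the sexes with Hoxb7Cre, the female minus male response to ischemia was 0.65 for Itga3, −2.01 for Itga5 and −1.15 for Itga6, and that to volume depletion was −1.87 for Itga5. Each of these sex differences lost its call in some fits that left out a library.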

How the results depend on the processing

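Over 69 values of single members, 542 of 607 values under other settings kept their direction and side of the threshold, 52 were no longer past it and 5 changed sign; with 1 library left out, 358 of 423 kept both, 56 were no longer past and 8 changed sign. Where no construction is named, the cause was not tested.

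Counts of members moved as follows. The number of all genes called also depended on the setting. With series A alone it was 2761 after ischemia and 1601 after volume depletion in male Atp6v1b1Cre. The shares of all genes are not given beside the counts below, so nothing about the members is read from them. With a log2 fold change of at least 1 also required, the male Hoxb7Cre counts were 1 after ischemia, 2 after volume depletion and 2 between the stimuli, the count between the stimuli in male Atp6v1b1Cre was 1, that of female Atp6v1b1Cre volume depletion 0, those of the driver differences 1 and 0, and those at baseline 2, 1 and 0. With both sexes pooled and sex as a covariate, Hoxb7Cre ischemia gave 0 and the driver difference under volume depletion gave 0. In that fit the stimuli differed in 2 members with Hoxb7Cre and 4 with Atp6v1b1Cre. With all 69 libraries in 1 fit, ischemia gave 2 with Hoxb7Cre and 6 with Atp6v1b1Cre. That fit pools males and females, with sex as a covariate, and holds the controls of 3 months. With only the 2 groups compared, male Atp6v1b1Cre gave 1 under each stimulus and female Hoxb7Cre ischemia 1. DESeq2 gave 1 for female Hoxb7Cre ischemia, 2 for female Atp6v1b1Cre ischemia, 4 between the stimuli in male Atp6v1b1Cre and 3 for the driver difference under volume depletion; filterByExpr gave 1 for female Hoxb7Cre ischemia, 4 between the stimuli in male Atp6v1b1Cre and 2 for that driver difference. Controls of 3 months gave 1 for female Hoxb7Cre ischemia. With library series as a covariate, the driver difference under volume depletion gave 3, the sex difference with Hoxb7Cre under volume depletion 2 and the baseline between drivers 3, which was also 3 in males only. Series A alone gave 1 and 1 in male Atp6v1b1Cre, 0 for female Atp6v1b1Cre volume depletion, 2 for the driver difference under volume depletion and 0 and 0 for the sex differences.

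The numbers did not pair the libraries, so a replicate block shares only a number. With the replicate block, male Hoxb7Cre volume depletion gave 3, male Atp6v1b1Cre ischemia 0, the stimuli in female Atp6v1b1Cre 1, the driver differences 0 and 0 and the baseline between drivers 4. Itgb6 between drivers at baseline was then −0.12. For female Atp6v1b1Cre injury against control, the block could not be estimated.

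Itgb6 also changed sign, near 0, in female Hoxb7Cre volume depletion under filterByExpr (−0.0079) and with controls of 3 months (−0.079), between drivers at baseline in females only (−0.0060), and in the driver difference under volume depletion with both sexes (−0.31). Leaving out 1 library moved it from −0.078 to 0.91 in male Atp6v1b1Cre ischemia, from −0.0095 to 0.40 and from −0.27 to 0.22 in female Hoxb7Cre ischemia and volume depletion, and from −0.43 to 0.093 between the stimuli there. Counts without 1 library ran from 4 to 4 and 4 to 6 in male Hoxb7Cre ischemia and volume depletion, 0 to 2 and 2 to 3 in male Atp6v1b1Cre, 0 to 2 in female Hoxb7Cre ischemia, 0 to 1 in female Atp6v1b1Cre volume depletion, 4 to 5, 1 to 3 and 2 to 4 between the stimuli (male Hoxb7Cre, male and female Atp6v1b1Cre), 1 to 3 and 0 to 2 for the driver differences and 0 to 4 and 0 to 3 for the sex differences with Hoxb7Cre. Leaving out libraries was not run for the Atp6v1b1Cre sex differences.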
